A study of Mus musculus with 12 samples.

Results

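The 10 genes described here encode inflammatory cytokines (Tnf, Il6, Il1a), cytokines and antagonists that restrain inflammation (Il1rn, Il10, Tgfb1) and proteins of the NF-kappaB pathway that are themselves induced by it (Nfkbia, Tnfaip3, Nfkb1, Nfkb2). They were chosen by name, and all 10 were found among the 23438 genes of the expression table. Messenger RNA was measured by sequencing in mouse bone marrow derived macrophages (BMDMs), which are macrophages grown from marrow precursors in culture, on day 7 of their differentiation, with atherosclerotic C57 mice as the source. There were 7 wild-type (WT) libraries and 5 libraries labelled Baf60a KO, a knockout of the gene Smarcd1, whose product Baf60a is a subunit of the SWI/SNF chromatin remodelling complex. WT and KO cultures carried the same differentiation label, and no label named a stimulus such as lipopolysaccharide. The levels are therefore those of cultures with no named stimulus, and the labels do not state that the cultures were at rest. The sources used here do not state how the deletion was made, whether a Cre driver was used, or the age and diet of the mice. Nothing in the labels says that the libraries came from separate animals, so the p-values rest on library-to-library spread alone, part of which may be technical.

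NF-kappaB transcription factors are held in the cytoplasm of resting cells by inhibitor proteins, of which the product of Nfkbia is the best known. When a Toll-like or cytokine receptor is engaged, a kinase complex marks this inhibitor for destruction, and the freed factors enter the nucleus and switch on Tnf, Il6, Il1a and other genes of inflammation. They also switch on their own brakes. New inhibitor from Nfkbia and the ubiquitin-editing enzyme from Tnfaip3 end the response, while Nfkb1 and Nfkb2 renew the precursors of the pathway's subunits. The receptor antagonist encoded by Il1rn blocks the receptor that Il1a activates, and Il10 and Tgfb1 encode secreted cytokines that dampen macrophage activation.

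The sequences just before the transcription starts of Il6, Nfkbia and Il1a are shown because Il6 and Il1a were nearly absent from most libraries and present in a few, and because Nfkbia had the lowest limma p-values of the members, in the values that follow. RefSeq promoter windows (GRCm38.p6, the sequence of mm10) were available for 8 of the 10 members. Each was searched on both strands over the 250 bases before the start for the NF-kappaB consensus site, with overlapping matches counted. Capitals mark a match, and each sequence reads 5′ to 3′ on the strand of the gene.
Il6 (chr5:30012864-30013113, plus strand): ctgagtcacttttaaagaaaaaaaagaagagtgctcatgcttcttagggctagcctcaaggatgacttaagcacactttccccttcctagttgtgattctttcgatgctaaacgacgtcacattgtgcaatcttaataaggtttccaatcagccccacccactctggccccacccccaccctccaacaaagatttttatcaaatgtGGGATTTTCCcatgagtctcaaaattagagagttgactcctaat
Nfkbia (chr12:55492648-55492897, minus strand): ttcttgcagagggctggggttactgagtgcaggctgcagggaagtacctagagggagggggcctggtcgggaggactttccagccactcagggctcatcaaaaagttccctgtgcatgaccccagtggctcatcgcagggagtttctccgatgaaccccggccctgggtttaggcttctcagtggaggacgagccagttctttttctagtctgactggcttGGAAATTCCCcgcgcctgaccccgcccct
Il1a (chr2:129309973-129310222, minus strand): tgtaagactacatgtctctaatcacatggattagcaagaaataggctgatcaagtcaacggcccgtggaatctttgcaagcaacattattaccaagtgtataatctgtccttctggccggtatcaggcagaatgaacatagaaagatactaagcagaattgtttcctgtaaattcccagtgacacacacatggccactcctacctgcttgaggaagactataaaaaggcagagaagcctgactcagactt

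The match began 44 bases before the start of Il6 and 29 bases before that of Nfkbia, and none was found in the window of Il1a. None of these 3 windows touched a transcript of the GENCODE M21 annotation. Tnfaip3 held GGGACACCCC and GGAAATCCCC in 1 of its 2 windows, beginning 125 and 12 bases before the start. Nfkb2 had a match in each of its 3 windows, GGGAATTCCC and GGGACTTTCC among them, and Tgfb1 held GGGACCCCCC. No match was found in the windows of Tnf or Il1rn. A match was present in 7.25% of all 32851 windows of this length. These matches describe letters in a short window and do not show binding.

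The deposited values were TPM, a transcript abundance scaled for gene length and library size, which can be set side by side between genes but keeps no record of sequencing depth. Smarcd1 was checked first and was lower in KO, at 5.99 to 7.58 TPM against 11.6 to 15.6 TPM in WT (log2 fold change -0.88, limma adjusted p of 0.000744). Macrophage genes were abundant in all 12 libraries: of 10 marker genes, 9 stood at 15.4 TPM or more in every library and Cd163 stayed below 1 TPM in all. Their summed level was 8533 to 9641 TPM in KO and 17930 to 20250 TPM in WT replicates 1, 5, 6 and 7. Lyz2 made up most of that sum in all 12 libraries, so the sum largely follows this 1 gene. It stood at 4932 to 5853 TPM in KO and 14635 to 16912 TPM in those WT libraries, and was the only 1 of the 10 with KO entirely below them. Cd14 was the only 1 entirely above, at 507 to 526 TPM in KO and 315 to 482 TPM in those WT libraries. In WT replicates 2, 3 and 4 the macrophage sum was 19210, 24620 and 7202 TPM. Lyz2 stood at 16587, 21547 and 5232 TPM in them, so that replicate 4 alone of the WT libraries lay inside the KO range. In the same 3 libraries, 3 markers lay below all other libraries: Csf1r at 170 to 275 TPM (541 to 910 TPM elsewhere), Cd14 at 60.0 to 81.8 TPM (315 to 526 TPM) and Fcgr1 at 15.4 to 37.1 TPM (96.1 to 164 TPM). These 3 libraries stood apart from the other 9 libraries. The summed level of 11 fibroblast and smooth muscle markers was 4210 to 10530 TPM in them, while the other WT libraries held 117 to 439 TPM and KO held 201 to 621 TPM. That of 12 neutrophil markers was 199 to 216 TPM in them, while WT replicates 1, 5, 6 and 7 held 1209 to 1565 TPM and KO held 1062 to 6282 TPM. Other cell types had low sums. The 8 T and NK cell markers summed to at most 5.22 TPM, with Cd3d at most 0.08 TPM and Trac at 1.35 to 2.82 TPM in WT replicates 2, 3 and 4 (at most 0.46 TPM elsewhere). The 6 B cell markers summed to 28.9, 30.3, 24.15, 27.7 and 10.3 TPM in KO replicates 1 to 5, where Ighm made up most of it. They summed to 10.9 to 21.1 TPM in WT replicates 1, 5, 6 and 7, and to 8.7 to 10.6 TPM in WT replicates 2, 3 and 4. The 7 dendritic cell markers summed to at most 2.41 TPM. The 7 mast cell and basophil markers summed to 2.28 to 6.96 TPM in WT replicates 2, 3 and 4, where Mcpt8 made up most of it, and to 12.4 and 6.16 TPM in KO replicates 1 and 4, against at most 2.0 TPM in the other libraries. Mcpt4 and Tpsb2 were listed at 0 throughout. The 6 endothelial markers summed to 17.0 to 56.4 TPM in WT replicates 2, 3 and 4 and to 6.44 to 15.6 TPM elsewhere. KO and WT are therefore compared for each member with all 12 libraries and with the 9 left without WT replicates 2, 3 and 4. Those 3 libraries were set apart by measured values, so they are described library by library and not averaged or tested as a group of their own. In the comparisons with 12 libraries they count among the WT libraries.

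In the 4 other WT libraries (replicates 1, 5, 6 and 7), Tgfb1 and the genes of the NF-kappaB pathway were abundant, and among the inflammatory cytokine genes Tnf alone was. Tgfb1 was the highest of the 10, at 159, 143, 163 and 150.4 TPM in these 4 libraries in that order. It lay above 96.1% of all listed genes by its median over the 9 libraries. Nfkbia followed at 78.9, 77.3, 99.2 and 77.3 TPM, and Nfkb1 at 63.3, 61.2, 70.1 and 63.6 TPM. The ranges of these 3 genes did not overlap. Tnf stood at 37.6, 38.4, 47.8 and 35.02 TPM, a level above that of 83.8% of listed genes in cultures with no named stimulus. Il1rn, at 35.1, 40.1, 23.1 and 30.5 TPM, overlapped both Tnf and Nfkb2, which stood at 26.1, 24.7, 29.0 and 25.1 TPM. Tnfaip3 came next without overlap, at 19.2, 22.5, 15.9 and 19.6 TPM.

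The other 3 cytokines were close to the bottom of the scale. Il10 stood at 0.60, 0.65, 1.48 and 0.50 TPM and Il1a at 0.41, 0.65, 0.28 and 0.36 TPM, with overlapping ranges. Il6 was lower still, at 0.07, 0.08, 0.06 and 0.20 TPM. None of the 3 reached 1 TPM in 5 libraries, the minimum set for the fit across genes. Cytokine genes outside the 10 varied as much in these 4 libraries. Il12a, Il12b, Il23a and Ifnb1 were at most 0.07 TPM, while Ebi3 was at 17.3 to 27.2 TPM, Osm at 7.85 to 9.80 TPM, Il18 at 6.70 to 10.1 TPM and Il15 at 6.47 to 9.95 TPM. WT replicate 6 held the highest level among these 4 libraries for Tnf, Nfkbia, Nfkb1, Nfkb2, Tgfb1 and Il10, and the lowest for Il1rn, Tnfaip3, Il1a and Il6. It also had the lowest summed level of fibroblast and smooth muscle markers, 117 TPM. The part of those cells in these values was not tested.

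**Figure D1:**
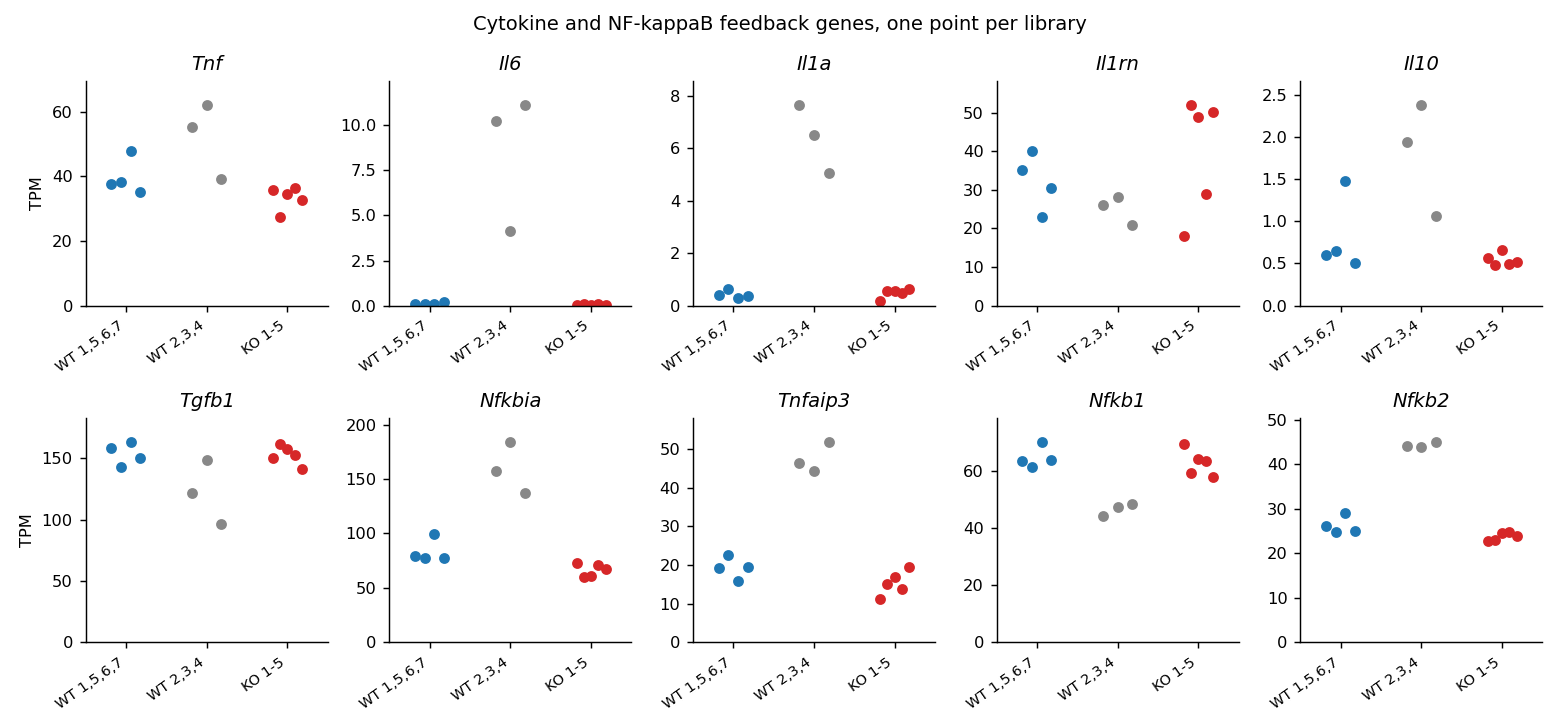
TPM of each of the 10 genes, one point per library, for WT replicates 1, 5, 6 and 7 (blue), WT replicates 2, 3 and 4 (grey) and the 5 KO libraries (red), on linear axes that start at 0 and differ between panels. The grey points stand above all others for Il6, Il1a, Nfkbia, Tnfaip3 and Nfkb2 and below them for Nfkb1, while the red points lie below all WT points for Nfkbia and Nfkb2.

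KO against WT was the comparison the study was designed for. No member passed the threshold with either set of libraries: 0 of the 7 members past the filter were called with 12 libraries, where 0.126% of all 11152 tested genes were called (0.108% higher and 0.0179% lower in KO), and 0 of 7 with 9 libraries, where 2.59% of 10954 genes were called. All 7 exceeded 10 TPM in every library, so none passed the filter through a single group. Before adjustment, 4 members (Tnf, Nfkbia, Tnfaip3 and Nfkb2) had p-values under 0.05 in both sets, all with lower levels in KO. Among all genes, 17.5% had such a p-value with 12 libraries (3.22% with KO lower) and 19.1% with 9 (4.33% with KO lower). With 9 libraries, KO lay entirely below WT for Lyz2 alone of the macrophage markers given above, and entirely above WT for Cd14 alone. The KO and WT ranges of the other macrophage markers overlapped. The part of these marker levels in the member values was not tested. The fit was limma on log2(TPM + 1), with Benjamini-Hochberg adjustment over all tested genes and 0.05 as the threshold, and fold changes on this scale understate those of genes at low levels.

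Nfkbia, the inhibitor gene, had the smallest limma p-values of the members. KO replicates 1 to 5 stood at 73.2, 59.8, 60.6, 70.9 and 67.3 TPM, below every WT library. KO averaged 66.3 ± 6.04 TPM (SD, n = 5) and WT replicates 1, 5, 6 and 7 averaged 83.2 ± 10.7 TPM (SD, n = 4). With 9 libraries limma gave a log2 fold change of -0.32 ± 0.0897 (SE), an adjusted p of 0.094 and a 95% interval of -0.52 to -0.12 that carries no adjustment for the number of genes. With all 12 libraries the values were -0.72 ± 0.225 (SE) and an adjusted p of 0.217 by limma. In bulk RNA, fewer cells that express a gene and less RNA per cell cannot be told apart.

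Nfkb2 was the other gene whose ranges did not overlap. KO values were 22.7, 23.0, 24.6, 24.7 and 24.0 TPM, and the nearest WT library, replicate 5, stood 0.01 TPM above the highest of them. KO averaged 23.8 ± 0.926 TPM (SD, n = 5) and the 4 WT libraries 26.2 ± 1.97 TPM (SD, n = 4). The limma estimate on the log2 scale was -0.13 ± 0.054 (SE, adjusted p 0.22) with 9 libraries and -0.45 ± 0.172 (SE, adjusted p 0.249) with 12. Ranges with KO entirely below WT were found in 2 of the 10 members in either set, both among the 7 members past the filter. Of all tested genes, which are those past the filter alone, 0.637% had such ranges with 12 libraries and 2.1% with 9. No member had KO entirely above WT, where 2.92% of genes did with 12 libraries and 7.1% with 9. When libraries were rescaled by their median ratio, Tnf and Il6 joined them and the count was 4 in either set. Of all tested genes, 1.56% then had KO entirely below WT with 12 libraries and 4.48% with 9. Il6 is under the filter and so outside those shares. It joined only because rescaling parted equal listed values, 0.06 TPM in KO replicates 2 and 4 and in WT replicate 6.

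The cytokine gene Tnf was at 35.8, 27.4, 34.5, 36.2 and 32.7 TPM in KO, and the KO range took in WT replicate 7, at 35.02 TPM. By limma it differed by -0.24 ± 0.103 (SE, adjusted p 0.239) on the log2 scale with 9 libraries and by -0.40 ± 0.143 (SE, adjusted p 0.233) with 12. Tnfaip3 stood at 11.2, 15.1, 16.9, 13.7 and 19.4 TPM in KO and overlapped WT replicates 1 and 6. The corresponding limma values were -0.33 ± 0.146 (SE, adjusted p 0.255) and -0.87 ± 0.306 (SE, adjusted p 0.231). For these 4 genes the log2 value with 12 libraries was more than 1.5 times that with 9. WT replicates 2, 3 and 4 held the highest levels of Nfkbia, Nfkb2 and Tnfaip3, and replicates 2 and 3 those of Tnf. Within the 9 libraries, leaving out WT replicate 6 reduced the value of Tnf to -0.15 and that of Nfkb2 to -0.08, both by more than 1.5 times.

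Nfkb1 and Tgfb1 had nearly equal means in the genotypes once WT replicates 2, 3 and 4 were left out. For Nfkb1, KO averaged 62.8 ± 4.60 TPM (SD, n = 5) and those WT libraries 64.6 ± 3.86 TPM (SD, n = 4). This was a log2 fold change of -0.04, and the 95% interval ran from -0.17 to 0.09. For Tgfb1 the averages were 152.8 ± 7.56 TPM (SD, n = 5) and 153.8 ± 9.09 TPM (SD, n = 4), and its log2 fold change of -0.01 had a 95% interval of -0.12 to 0.10. With all 12 libraries both values were positive, 0.16 for Nfkb1 and 0.14 for Tgfb1, with limma adjusted p-values of 0.403 and 0.448. The former became 0.10 when WT replicate 2 was omitted and the latter 0.05 when WT replicate 4 was.

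Il1rn, the gene of the interleukin receptor antagonist, was the most variable of the 7 within the KO group. KO replicates 1 to 5 stood at 17.99, 52.0, 48.8, 29.0 and 50.3 TPM, so that KO held both the lowest and the highest values of all 12 libraries. The coefficient of variation was 38.5% in KO, while that of the other 6 ran from 3.89% to 20.3%. With 9 libraries limma gave 0.21 ± 0.309 (SE, adjusted p 0.751) on the log2 scale, and its 95% interval of -0.48 to 0.91 leaves a change of either sign possible. With 12 libraries the value was 0.36 ± 0.26 (SE, adjusted p 0.397). Single libraries moved the value with 9 by more than 1.5 times. Omitting WT replicate 6 gave 0.07 and omitting WT replicate 5 gave 0.33. Omitting KO replicate 1 gave 0.46, and omitting KO replicate 2, 3 or 5 gave 0.09, 0.12 or 0.10. With 12 libraries it became 0.61 when KO replicate 1 was omitted and 0.24 when KO replicate 2 was. KO replicates 1 and 4, low for Il1rn, were the KO libraries with the most S100a9, a neutrophil marker, at 3507 and 2375 TPM against 536 to 1102 TPM in the other KO libraries. Of the 12 neutrophil markers, 10 were higher in both of these libraries than in any other KO library, and Mmp8 and Mmp9 were not. The list summed to 6282 and 4394 TPM in KO replicates 1 and 4 and to 1062 to 2123 TPM in the other KO libraries. The fibroblast and smooth muscle markers were low in the same libraries, at 201 and 285 TPM against 438 to 621 TPM, with 8 of 11 below every other KO library. The mast cell and basophil sums given above were also highest there. The part of any of these cells in the Il1rn values was not tested.

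**Figure D2:**
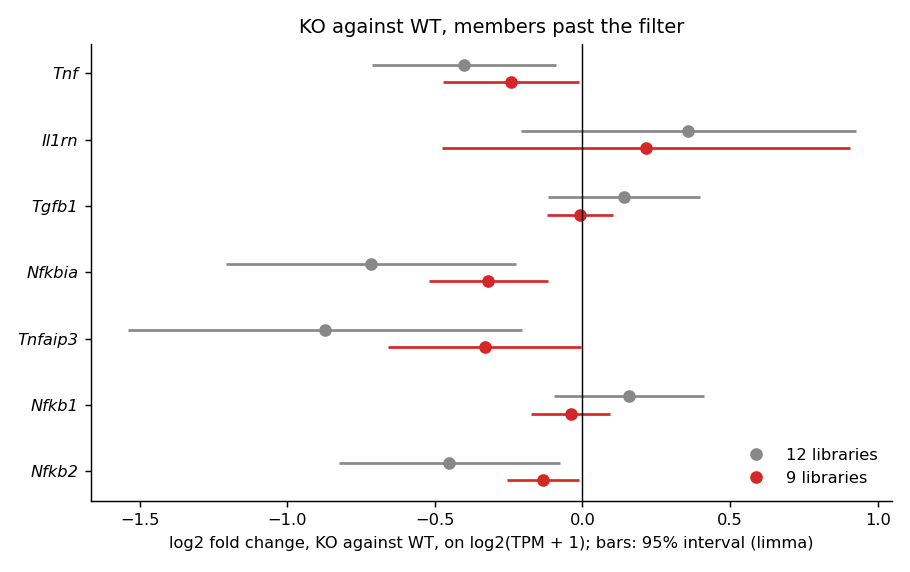
Log2 fold change of KO against WT with its 95% interval from limma for the 7 genes past the filter, with all 12 libraries (grey) and with the 9 left without WT replicates 2, 3 and 4 (red). The intervals for Tnf, Nfkbia, Tnfaip3 and Nfkb2 lie below 0 in both sets before adjustment for the number of genes, and those for Il1rn, Tgfb1 and Nfkb1 include 0.

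For the 3 cytokine genes under the filter, mean TPM was tested by two-sided exact permutation, without adjustment over these 6 tests. Il6 was at 0.05, 0.06, 0.04, 0.06 and 0.04 TPM in KO, at or below the 0.06 TPM of the lowest WT library. KO minus WT was -3.65 TPM with 12 libraries and -0.0525 TPM with the 9 left without WT replicates 2, 3 and 4. The exact p was 0.00758 with 12 libraries (792 splits) and 0.0476 with 9 (126 splits). The latter fell under 0.05 only if no library was left out or if WT replicate 6 was. Il10 was at 0.57, 0.48, 0.66, 0.49 and 0.52 TPM in KO, with an exact permutation p of 0.0354 with 12 libraries and 0.222 with 9. The p with 12 libraries for Il10 passed 0.05 when any of WT replicates 2, 3, 4 and 6 or KO replicates 1, 2, 4 and 5 was left out, and reached at most 0.0788. Il1a was at 0.19, 0.56, 0.55, 0.47 and 0.64 TPM in KO, with 4 of the 5 values inside the range of WT replicates 1, 5, 6 and 7 (KO minus WT -2.51 TPM, exact permutation p of 0.222 with 12 libraries, and 0.057 TPM, p of 0.619 with 9). How many reads stand behind values this low cannot be read from TPM, and the limma fit without a filter called none of the 3 (adjusted p of 0.376 to 0.41 with 12 libraries, and 0.415 to 0.864 with 9).

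WT replicates 2, 3 and 4 held a different balance of the same genes. Il6 stood at 10.2, 4.12 and 11.1 TPM in them, against at most 0.20 TPM in the other 9 libraries. Il1a was at 7.65, 6.52 and 5.07 TPM, against at most 0.65 TPM elsewhere. Both genes were thus under 1 TPM in the other 9 libraries and above 4 TPM in these 3. Both feedback genes were high as well, with Nfkbia at 157, 184 and 137 TPM and Tnfaip3 at 46.3, 44.4 and 51.9 TPM. Nfkb2 was at 44.1, 44.0 and 45.0 TPM, while Nfkb1 was low, at 44.1, 47.4 and 48.3 TPM against 57.8 to 70.1 TPM elsewhere.

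In all, 5 of the 10 members lay above the other 9 libraries in all 3 of these libraries and 1 lay below, where 23.6% of all tested genes lay above and 25.5% below. Il6 and Il1a were under the filter, so they are not among the tested genes behind this and the next shares. A gene that reached 1 TPM in these 3 libraries alone could not pass that filter, so the shares and the member count cover unlike sets. Against the 4 other WT libraries alone the same 5 lay above and the same 1 below, where 29.9% and 28.3% of genes did. Tnf, at 55.2, 62.1 and 39.1 TPM, reached above the other libraries in replicates 2 and 3 but not in replicate 4. Il10, at 1.94, 2.38 and 1.06 TPM, also did so in replicates 2 and 3, and its level in replicate 4 was below the 1.48 TPM of WT replicate 6. Il1rn, at 26.1, 28.1 and 20.8 TPM, and Tgfb1, at 122, 149 and 96.1 TPM, overlapped the other libraries, with replicate 4 lowest of the 12 for Tgfb1. Rescaling by the median ratio left the same 5 above and the same 1 below, where 25.4% of genes then lay above and 25.4% below. The summed fibroblast and smooth muscle markers of replicates 2, 3 and 4 are given above, and 9 of those 11 markers lay above the other 9 libraries in all 3. Of the other markers, 9 of 12 neutrophil and 3 of 10 macrophage markers lay below. The neutrophil marker Mmp8 went the other way and lay above, at 65.6 to 72.2 TPM against at most 11.4 TPM elsewhere. The part of the cell makeup in the cytokine levels was not tested.

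Ratios within a library, which do not depend on the scaling, were computed after these values had been seen. Il1rn exceeded Il1a by 61.7 to 85.7 times in the other WT libraries and by 61.7 to 94.7 times in KO, but by 3.42, 4.31 and 4.11 times in WT replicates 2, 3 and 4. The excess of Il1rn over Il1a transcript was thus smaller in those 3 libraries than in any other. Il1b was not part of this ratio. It stood at 0.37 to 1.11 TPM in the other WT libraries, 0.43 to 1.22 TPM in KO and 1.16 to 2.51 TPM in WT replicates 2, 3 and 4. The ratio of Nfkb1 to Nfkb2 was 2.41 to 2.54 in the other WT libraries, 2.41 to 3.06 in KO and 1.001, 1.08 and 1.07 in WT replicates 2, 3 and 4. That of Nfkbia to Nfkb1 was 1.22 to 1.42 in the other WT libraries, 0.944 to 1.16 in KO and 3.56, 3.89 and 2.84 in WT replicates 2, 3 and 4, so this ratio did not overlap between any of the 3 sets of libraries. The ratio of Tnfaip3 to Nfkbia, the fourth that was computed, overlapped between all 3 sets, at 0.160 to 0.291 in the other WT libraries, 0.153 to 0.288 in KO and 0.241 to 0.379 in WT replicates 2, 3 and 4.

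**Figure D3:**
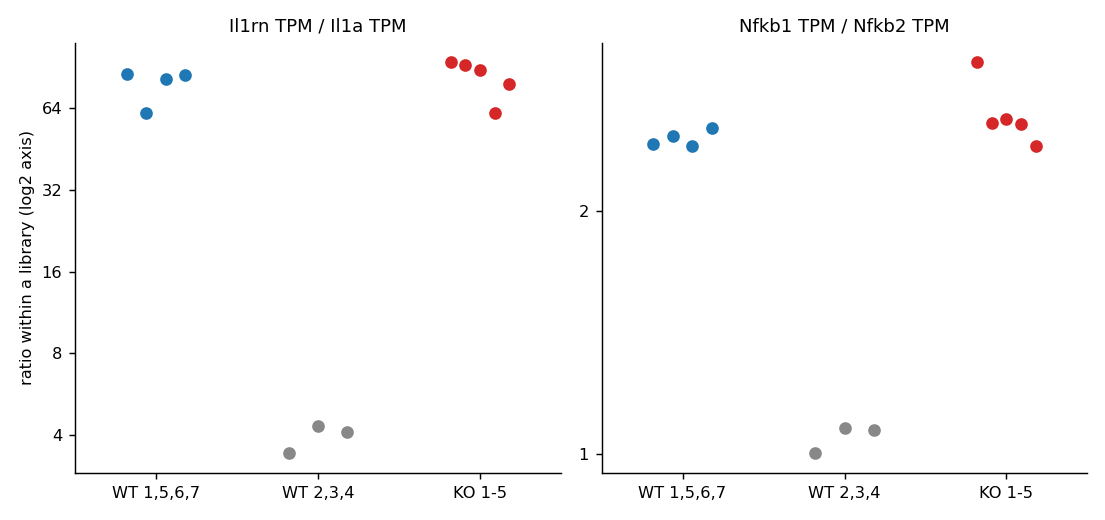
Ratio of Il1rn to Il1a (left) and of Nfkb1 to Nfkb2 (right) in TPM within each library, on log2 axes, with one point per library. WT replicates 2, 3 and 4 lie between 3.42 and 4.31 on the left and between 1.001 and 1.08 on the right, below all other libraries on both axes.

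The wider pathway was described with 86 further genes in 5 lists, of which 85 were in the table. With 12 libraries none of the 75 tested was called by limma. With 9 libraries 4 of 73 were called, 3 higher and 1 lower in KO, where 1.82% of all genes were called higher and 0.776% lower. Of 17 tested genes for negative feedback, 3 rose and none fell, with a median log2 fold change of 0.11 against 0.05 over all genes. Zfp36 encodes tristetraprolin, a protein that binds AU-rich elements of cytokine messages, Tnf among them, and speeds their decay. It stood at 57.7, 59.7, 69.8, 67.5 and 60.0 TPM in KO and at 40.2 to 52.0 TPM in WT replicates 1, 5, 6 and 7. This was a rise of 0.46 ± 0.0828 (SE) on the log2 scale (limma adjusted p 0.0258).

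Dusp1, a phosphatase gene that shuts off the MAP kinases beside NF-kappaB, rose from 85.9 to 100.4 TPM in these 4 WT libraries to 102 to 149.7 TPM in KO. On the log2 scale the rise was 0.46 ± 0.0955 (SE, limma adjusted p 0.0404). Cyld, which encodes a deubiquitinase that restrains the pathway's kinase, rose by 0.23 ± 0.0521 (SE) in log2 units (limma adjusted p 0.0496), from 12.9 to 15.1 TPM to 15.9 to 17.2 TPM. In WT replicates 2, 3 and 4, Zfp36 was at 28.8 to 36.2 TPM and Cyld at 11.6 to 12.2 TPM, below the other libraries, but Dusp1 was at 163 to 202 TPM, above them. With all 12 libraries the log2 fold changes were 0.67 for Zfp36, 0.33 for Cyld and 0.03 for Dusp1, with limma adjusted p-values of 0.111, 0.127 and 0.95. The calls with 9 libraries were not stable: leaving out 1 library ended them in 6 of 9 cases for Zfp36, 7 for Dusp1 and 8 for Cyld, and leaving out WT replicate 1, WT replicate 5, WT replicate 7, KO replicate 2, KO replicate 3 or KO replicate 4 ended each of the 3. The highest adjusted p so reached was 0.0738, 0.125 and 0.138. Dusp1 overlaps the protein-coding gene Ergic1 and Zfp36 overlaps Gm44710, both on the other strand, and Cyld holds a pair of processed pseudogenes, so some of their reads could belong to a partner.

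Of 18 kinases and adaptors, 1 fell with 9 libraries and none rose. This was Ikbkg, which encodes the regulatory subunit of the kinase that marks the inhibitor for destruction. It was at 67.1, 71.8, 80.3, 69.5 and 75.1 TPM in KO and at 84.2 to 97.5 TPM in WT replicates 1, 5, 6 and 7, which limma put at -0.33 ± 0.0613 (SE, adjusted p 0.0263) on the log2 scale. WT replicates 2, 3 and 4 held 117 to 147 TPM, and with 12 libraries the log2 fold change was -0.57 (limma adjusted p of 0.156). Ikbkg (chromosome X, 74393290 to 74453854) overlaps G6pdx on the other strand, and no source used here says how strand was handled, so reads of the pair could be mixed. G6pdx itself rose by 0.30 in log2 units with 9 libraries (limma adjusted p 0.0173). Leaving out WT replicate 1, 5 or 7 or KO replicate 2 or 4 ended the call for Ikbkg (adjusted p of at most 0.0876). Of the other genes of this list, Tab2, Irak1 and Ikbkb were the most abundant, and their log2 fold changes were -0.02, -0.04 and -0.02 with 9 libraries and 0.22, 0.17 and 0.31 with 12.

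The remaining 3 lists held no called gene with either set, and their values are given for 9 libraries first. Of 7 further subunits and inhibitors, 5 had negative values, with a median of -0.19 on the log2 scale. Rela, the main activating subunit, was at 52.1 to 62.2 TPM in KO and 54.1 to 62.7 TPM in WT replicates 1, 5, 6 and 7. Nfkbib (-0.19, limma adjusted p of 0.101), Nfkbiz (-0.34, adjusted p of 0.111) and Bcl3 (-0.21, adjusted p of 0.132) encode inhibitors and their nuclear relatives, and their values with 12 libraries were -0.32, -0.88 and -0.32. Of 14 tested receptors and release factors, 9 had positive values and the median was 0.04. Il10rb (0.09), Tnfrsf1b (0.18) and Itgav (0.04) were among the most abundant, as was Furin (-0.26, adjusted p of 0.0964), a protease that cleaves the precursor made from Tgfb1. With 12 libraries these 4 were at 0.35, -0.25, 0.07 and 0.22, so Tnfrsf1b and Furin had the opposite sign there. Of 17 tested other cytokines and targets, 8 had positive values and the median was near 0, with Sod2 at -0.07, Marcksl1 at -0.07, Tnfaip2 at -0.18 and Icam1 at -0.05. With 12 libraries these 4 were at -0.46, -0.44, -0.63 and -0.19.

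**Figure D4:**
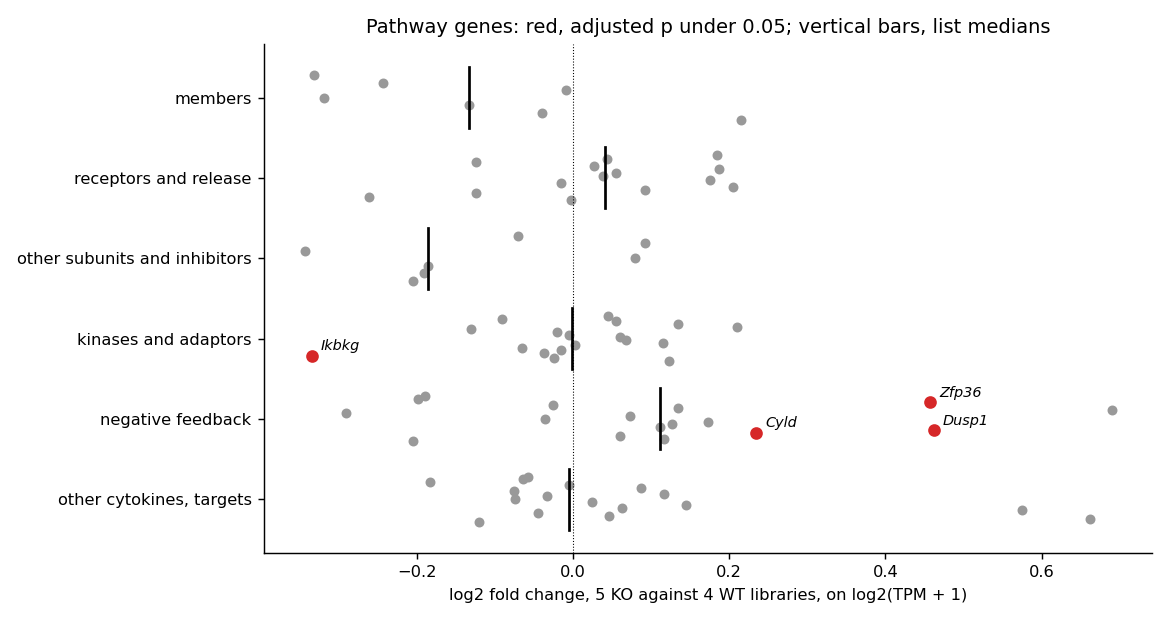
Log2 fold change of 5 KO against 4 WT libraries for the tested genes of each list, one point per gene, with a vertical bar at the median of each list. Red points are genes with a limma adjusted p under 0.05: Ikbkg lies left of 0, and Zfp36, Dusp1 and Cyld lie right of it.

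The lists are described in WT replicates 2, 3 and 4 by the same counts, to be read beside the 23.6% of all tested genes above and 25.5% below, with no test between lists. Unlike these shares, the list counts take in genes under the filter. Of those, Il12b, Nos2, Il1r1, Itgb8 and Socs1 are counted as above, some at very low levels, such as Itgb8 at 0.06 to 0.13 TPM. Among 24 other cytokines and targets, 12 lay above the other 9 libraries in all 3 and 2 lay below. Among 18 kinases and adaptors, 3 lay above and 10 below, and among 18 receptors and release factors 5 lay above and 8 below. Among 18 feedback genes 6 lay above and 6 below, and among 7 subunits and inhibitors 3 lay above and 2 below. Examples chosen after their values were seen are Ptgs2, the inducible cyclooxygenase gene, at 71.3, 33.9 and 121 TPM against at most 8.21 TPM elsewhere, and Lif, a cytokine gene of the interleukin 6 family, at 30.1, 18.4 and 33.5 TPM against at most 2.62 TPM. The receptor genes Il6ra (8.85 to 12.6 TPM against 26.0 to 33.6 TPM) and Il10ra (12.8 to 21.4 TPM against 36.2 to 56.1 TPM) were low in the same 3 libraries. Tgfb3 stood at 49.0, 45.5 and 152 TPM there and at 4.15 to 12.4 TPM elsewhere, unlike Tgfb1.

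Over the 9 libraries, the genes whose log2(TPM + 1) followed each member past the filter most closely were sought by Pearson correlation. This is a description over 9 points that share their genotypes and cell makeup. The search covered the 10954 genes tested with 9 libraries, after predicted genes, clone names, pseudogenes and mitochondrially encoded genes were dropped. The closest were Trib1 (0.939) and Gadd45gip1 (0.934) for Tnf, Chst11 (0.993) and Scpep1 (0.989) for Il1rn, and St18 (0.966) and Eef2 (0.958) for Tgfb1. For Nfkbia they were Klra2 (0.969) and Srp68 (0.962), and for Tnfaip3 Angptl4 (0.969) and Mmp27 (0.964). Pcbp1 (0.967) and Disc1 (0.965) followed Nfkb1, and Rap2a (0.936) and Fgf2 (0.918) followed Nfkb2. The values of Il1rn and Chst11 show the pattern: Chst11 was at 7.79 and 9.79 TPM in KO replicates 1 and 4 and at 12.9 to 13.7 TPM in the other KO libraries.

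In mm10, with GENCODE M21 gene limits, Nfkbia (ENSMUSG00000021025) spans 55489410 to 55492647 on chromosome 12, Tnfaip3 (ENSMUSG00000019850) 19000910 to 19015657 on chromosome 10, and Tnf (ENSMUSG00000024401) 35199381 to 35202007 on chromosome 17. Il1rn (ENSMUSG00000026981) spans 24336853 to 24351494 and Il1a (ENSMUSG00000027399) 129299610 to 129309972, both on chromosome 2. Il6 (ENSMUSG00000025746) lies at 30013114 to 30019981 on chromosome 5, Il10 (ENSMUSG00000016529) at 131019845 to 131024974 on chromosome 1, and Tgfb1 (ENSMUSG00000002603) at 25687002 to 25705077 on chromosome 7. Nfkb1 (ENSMUSG00000028163) lies at 135584655 to 135691547 on chromosome 3 and Nfkb2 (ENSMUSG00000025225) at 46304320 to 46312385 on chromosome 19. All are protein-coding. Il1a and Nfkb2 overlap annotated genes on the other strand (Gm14023 for Il1a, Psd and AC114539.1 for Nfkb2) and Nfkb1 overlaps Gm43430 on its own strand, so a share of their reads could belong to a partner.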

How the data were processed

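Per the submitters' processing notes, reads were handled with bcl2fastq and Salmon 1.2.0 on mm10. How transcripts were summed to genes, on which annotation and with which strand setting, the sources used here do not say. TPM per gene and library, in 1 table, is what the authors deposited. TPM sums over the listed genes were 940127 to 947987, and no depth or counting interval can be had from them. Columns were assigned through the submission names in the descriptions. Symbols came from GENCODE M21 (23423 of 23438 IDs matched). No libraries were identical.

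limma 3.58.1 (R 4.3.3, trend) was fitted to log2(TPM + 1) with genotype as the term, over genes that reached 1 TPM in 5 or more libraries, and tested on simulated data. The filter was set again for the 9 libraries. Members under it were compared by exact permutation (SciPy 1.17.1). The members, lists and the 9-library set were chosen with earlier results of these data known. Genes named are the members, Smarcd1, called genes of each list, up to 4 by mean TPM where under 2 were called, and the 2 most similar genes of known name per member past the filter. Cell type markers, overlapping genes and other list genes given as examples (Ptgs2, Lif, Il6ra, Il10ra, Tgfb3 and low or moderate cytokine genes) fall outside this rule, and the examples were chosen after their values were seen. Alternatives were scaling, filter, pseudocount, quality weights, blocks, threshold and left-out libraries. Relb was not analysed here.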

Additional observations from a re-analysis of the deposited data

How the results depend on the processing

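No member was called by limma under any of 21 alternatives with 12 libraries or 15 with 9, and Tnf, Nfkbia, Tnfaip3 and Nfkb2 kept negative values in all. Not all of these alternatives are separate checks. The threshold of 0.01 could call no member that 0.05 had not. Leaving out WT replicates 2, 3 and 4 from the 12 libraries repeats the main fit with 9. Nfkbia came closest, with adjusted p-values from 0.0528 to 0.175 over the alternatives with 9 libraries. The number of genes called over the whole table, 14 with 12 libraries, was 4 with median-ratio scaling (2 higher and 2 lower, against 12 and 2), 759 with sample quality weights, 3 with a submission number block, which no label calls a batch, 3 at a threshold of 0.01, 284 without WT replicates 2, 3 and 4, and 2 to 36 when 1 library was left out. With 9 libraries, 284 genes (199 higher, 85 lower) became 180 without a filter, 770 with quality weights, 133 with the submission number block, 30 at 0.01 and 55 to 464 when 1 library was left out. Median-ratio scaling gave 228 (88 higher, 140 lower). Quality weights gave Dusp1 (log2 fold change 0.48), Zfp36, Cyld and Ikbkg adjusted p-values under 0.05 with 12 libraries.

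With the replicate block on the 10 libraries that share numbers, limma called 0 genes, although 3688 had an unadjusted p under 0.05. Without the block these libraries gave 13 calls, and with it Smarcd1 lost its call (adjusted p of 0.133). Same-numbered libraries correlated at -0.233 to 0.273 in their deviations, and no number had both libraries as each other's best match. The WT libraries set apart above were among those compared, and their difference from the other WT libraries could hide a pairing. This check therefore cannot decide whether the numbers pair the libraries.

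With 12 libraries, Tgfb1 went to -0.009 and Nfkb1 to -0.0402 without WT replicates 2, 3 and 4, and Nfkb1 to -0.0076 with quality weights. Dusp1 went from 0.03 to -0.0214 with median-ratio scaling, to -0.1385 on the 10 libraries with or without the replicate block, and to between -0.0612 and 0.1431 when 1 library was left out. With 9 libraries, Tgfb1 was 0.0062 with quality weights and between -0.0438 and 0.0206 when 1 library was left out. With 9 libraries and the submission number block, the adjusted p was 0.0565 for Ikbkg, 0.0506 for Dusp1 and 0.0931 for Cyld. Median-ratio scaling gave 0.055 for Dusp1 and 0.117 for Cyld, and no filter 0.073 and 0.0746.

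For Il6 with 12 libraries (KO minus WT -3.65 TPM), limma without the filter gave -1.36 on the log2 scale (adjusted p of 0.41). The difference of mean TPM, KO minus WT, ran from -4.25 to -2.41 when 1 library was left out, an alternative chosen for Il6, Il1a and Il10 after seeing the data. With 9 libraries Il6 gave -0.0686 (adjusted p of 0.415) and -0.0667 to -0.02 TPM. Il10 gave -0.47 (adjusted p of 0.376) and -0.808 to -0.494 TPM with 12 libraries. TPM gives no depth, so what these low values can resolve is unknown.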
